A study of Drosophila melanogaster with 24 samples.

Results

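The fly eye is coloured by 2 kinds of pigment, brown ommochromes and red pteridines, and 8 classical eye colour genes were followed here through an RNA immunoprecipitation experiment on fly heads. The genes are white (w), scarlet (st), brown (bw), vermilion (v), cinnabar (cn), purple (pr), sepia (se) and rosy (ry). They were chosen by symbol as pigment transporters and pigment synthesis genes, without use of their values but with earlier results of these data known. They make up 8 of the 17753 genes in the count tables. All 8 were present in the tables, and 7 of the 8 passed the filter on low counts that left 6147 genes to be tested; cn did not.

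Ommochromes are made from tryptophan. The enzymes encoded by v (tryptophan dioxygenase) and cn (kynurenine monooxygenase) act on that route, and the ABC transporter subunits encoded by w and st together carry ommochrome precursors into the pigment granule. Pteridines are made from GTP. The genes pr (pyruvoyltetrahydropterin synthase), se (the omega class glutathione transferase that makes the drosopterin intermediate PDA) and ry (xanthine dehydrogenase) act on that route, and the subunits encoded by w and bw together carry pteridine precursors. Fly transgenes often carry a copy of w as a visible marker, so that w counts can come from the chromosomal gene, from a transgene or from both. The labels do not say which of the transgenes used here carry a w copy, and the counts cannot separate the copies.

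Sequencing was done on RNA from heads of adult female Drosophila melanogaster of 3 genotypes, all with the GAL4 transcription factor driven by elav, a neuronal gene. The control (elav>Gal4) carried the driver with no tagged protein. The genotype elav>Nab2-FLAG added a FLAG-tagged copy of the RNA-binding protein Nab2, and elav>Atx2-3xFLAG added a tagged copy of Atx2 (Ataxin-2). The driver acts in neurons, which include the photoreceptors, whereas pigment cells are not neurons. The age of the flies and the rest of the genetic background are not given in the sources used here. Each genotype had 4 lysates of 300 formaldehyde-fixed heads, named as biological replicates, of which 20% was kept as Input and 80% went to the anti-FLAG immunoprecipitate (RIP). The 24 libraries thus formed 6 groups of 4, and RIP and Input were sequenced as separate pools, so that library type and pool cannot be told apart.

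Totals ran from 511415 to 1091678 counts in Input and from 220894 to 2109561 in RIP, with the fewest in control RIP 3 (220894) and Nab2-FLAG RIP 3 (254077). The Nab2 gene matched the labels: its Input level was 24.6 ± 4.58 CPM in control and 122 ± 29.1 CPM in Nab2-FLAG (SD, n = 4), a log2 difference of 2.25, and the RIP difference was 2.06. The Atx2 gene was not separated from control in Atx2-3xFLAG, with log2 differences of 0.09 in Input and 0.18 in RIP. CPM here is a gene's count scaled to its library's total over the tested genes, with TMM factors over all 24 libraries, so that a level is a share of a library; levels of different genes are not compared because no transcript lengths were used. In whole heads, fewer cells of a type and less RNA per cell cannot be told apart.

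In Input, the pteridine enzyme genes pr and se rose in both tagged genotypes and ry rose in Atx2-3xFLAG, while the transporters and v did not pass the test in either. Against control, 2 of 7 tested pigment genes rose and 0 fell in Nab2-FLAG Input (pr and se), where 12.2% of all genes tested were called in either direction. In Atx2-3xFLAG Input 3 of 7 rose and 0 fell (pr, se and ry), where 16.5% of all genes were called. For the 7 genes the median log2 difference was 0.38 (Nab2-FLAG) and 0.10 (Atx2-3xFLAG), beside -0.02 and -0.01 for all genes tested. Both contrasts use the same 4 control libraries. With scaling by library size alone, all Input calls in Nab2-FLAG split into 663 higher and 107 lower, against 452 and 298, and those in Atx2-3xFLAG into 1043 and 169, against 548 and 469. In RIP, 1 of 7 rose and 1 fell in Nab2-FLAG (pr up, bw down; 20.0% of all genes called), and 3 rose and 1 fell in Atx2-3xFLAG (pr, se and ry up, w down; 24.1% of all genes called). Groups of 4 did not overlap for 3 of the 7 genes between Nab2-FLAG and control Input (pr, se and st; 14.9% of all genes). The count was 2 for Atx2-3xFLAG Input (17.1%), 2 for Nab2-FLAG RIP (18.6%) and 2 for Atx2-3xFLAG RIP (22.9%). With scaling by library size alone, RIP calls over all genes numbered 979 up and 270 down for Nab2-FLAG, against 656 and 571, and 1338 and 297 for Atx2-3xFLAG, against 741 and 741. A gene was called when its adjusted p from edgeR's quasi-likelihood F test, with Benjamini-Hochberg adjustment over all 6147 genes, was under 0.05.

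**Figure D1:**
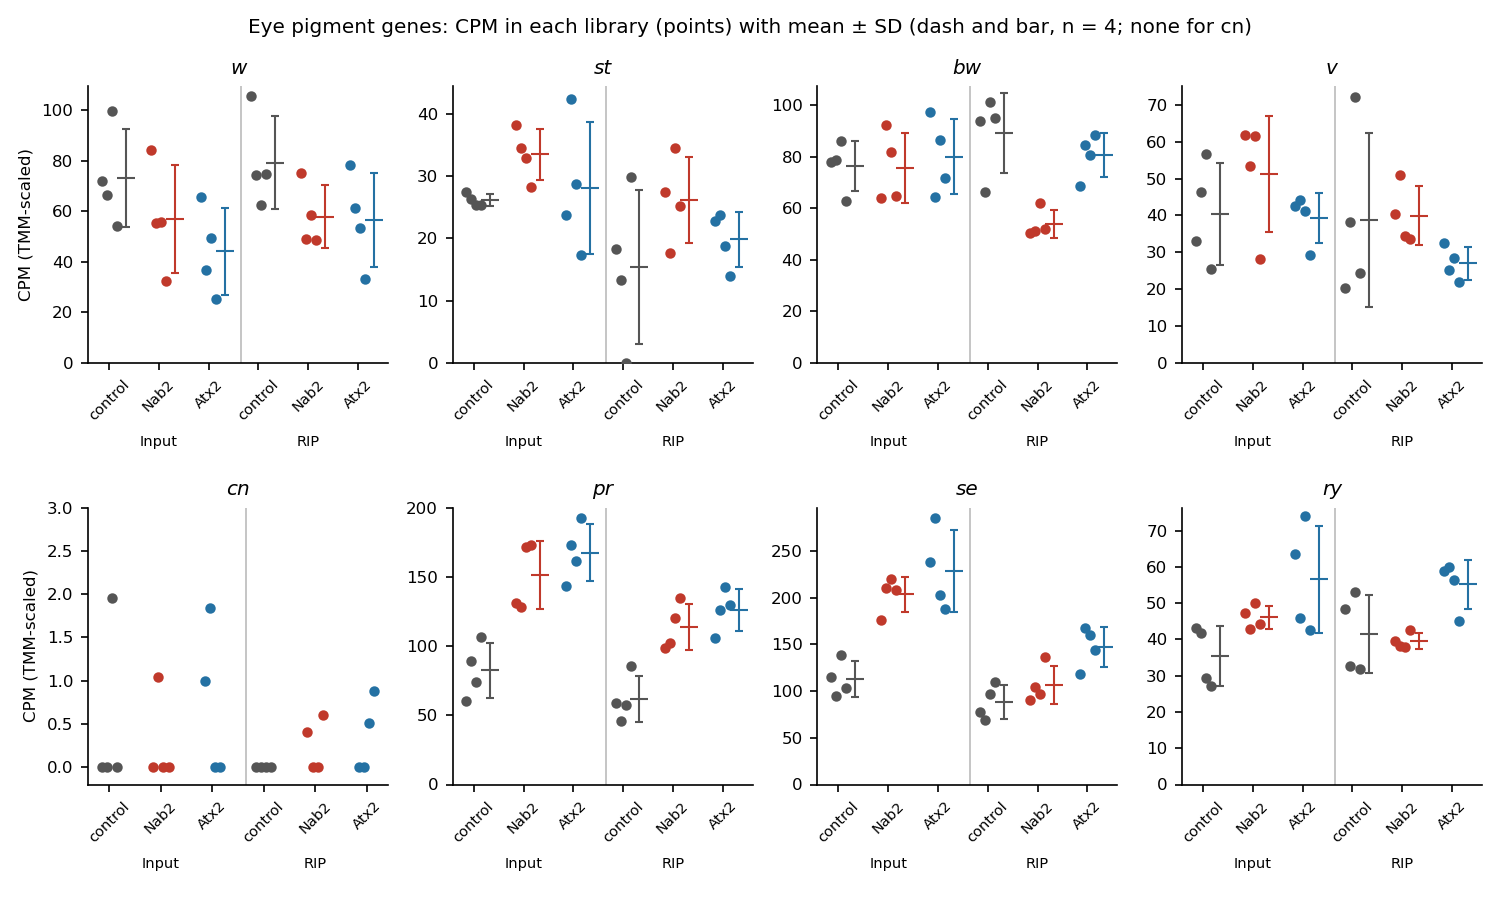
TMM-scaled CPM (linear axis, different for each gene) of the 8 pigment genes in each of 24 libraries, by genotype and pool; points are libraries, dashes and bars are means and SD of 4, with none drawn for cn. The pr points of both tagged genotypes lie above all control points in both pools, the 4 Nab2-FLAG RIP points of bw lie below all control RIP points, and w groups overlap.

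The gene w (FBgn0003996; X:2790599-2796466) encodes the subunit shared by both transporters. In Input its level was 72.1, 66.5, 99.7 and 54.2 CPM in the 4 control libraries, 84.3, 55.5, 55.9 and 32.3 CPM in the Nab2-FLAG libraries and 65.5, 36.8, 49.4 and 25.3 CPM in those of Atx2-3xFLAG. The groups overlapped, with replicate 4 lowest in each genotype and the lowest values of all in Atx2-3xFLAG. In RIP its level was 105.5, 74.1, 62.6 and 74.7 CPM in control, 75.1, 49.1, 58.6 and 48.8 CPM in the Nab2-FLAG libraries and 78.3, 61.5, 53.5 and 33.3 CPM in those of Atx2-3xFLAG. Again the groups overlapped, and the highest library was a control.

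The fitted log2 difference of w from control in Input was -0.29 (SE 0.27, adjusted p = 0.594 in edgeR) with Nab2-FLAG and -0.65 (SE 0.28, adjusted p = 0.131) with Atx2-3xFLAG. In RIP it was -0.47 (SE 0.23, adjusted p = 0.175) and -0.65 (SE 0.23, adjusted p = 0.0472). In these reported fits only the last passed, as a 1.57-fold lower level of w in Atx2-3xFLAG RIP. That call ended in 10 of 14 alternatives, where its adjusted p reached 0.265 in edgeR. Among them it was 0.159, 0.0760, 0.0742 and 0.0702 in edgeR without control RIP 1, 2, 3 and 4. It was 0.108 and 0.0761 without Atx2-3xFLAG replicates 3 and 4, and 0.0712 with DESeq2. The difference in Atx2-3xFLAG Input was called without Atx2-3xFLAG replicate 1 (-0.92, adjusted p = 0.0160 in edgeR), and the one in Nab2-FLAG RIP without Nab2-FLAG replicate 1 (-0.69, adjusted p = 0.0347). Both were also called with no expression filter (adjusted p = 0.0145 and 0.0478), and with the replicate block given below under processing. All 4 fitted differences of w from control were below 0, and stayed so in each of the 14 alternatives; their 95% intervals reached up to 0.28 in Nab2-FLAG Input and 0.02 in Nab2-FLAG RIP.

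The 6 group means of w ran in order from 79.2 ± 18.4 CPM in control RIP and 73.1 ± 19.2 in control Input through 57.9 ± 12.3 in Nab2-FLAG RIP, 57.0 ± 21.3 in Input of Nab2-FLAG and 56.6 ± 18.7 in Atx2-3xFLAG RIP to 44.2 ± 17.2 in Atx2-3xFLAG Input (SD, n = 4). Each neighbour in that order differed by less than the larger of their SDs. Between the tagged genotypes the log2 difference of w was 0.37 in Input (95% interval -0.22 to 0.95) and 0.18 in RIP (-0.30 to 0.65), called in neither.

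The gene bw (FBgn0000241; 2R:23527805-23538499) encodes the partner of w in the pteridine transporter. Its Input level was 77.9, 78.9, 86.0 and 62.7 CPM in control, 64.1, 92.1, 81.7 and 64.6 CPM in the Nab2-FLAG libraries and 97.2, 64.5, 86.4 and 71.9 CPM in those of Atx2-3xFLAG. These Input groups lay on top of each other. In RIP the level was 93.7, 66.3, 101.2 and 95.1 CPM in control, 50.4, 51.1, 62.0 and 51.8 CPM in the Nab2-FLAG libraries and 68.6, 84.5, 80.5 and 88.5 CPM in those of Atx2-3xFLAG. All 4 Nab2-FLAG RIP libraries were below every other RIP library.

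In RIP, bw was 1.68-fold lower in Nab2-FLAG than in control (log2 difference -0.74, SE 0.15, adjusted p = 0.000216 in edgeR). It was also 1.55-fold lower than in Atx2-3xFLAG (-0.64, SE 0.14, adjusted p = 0.00333), the single pigment gene called between the tagged genotypes in RIP, where 4.34% of all genes were called. The RIP libraries of these genotypes did not overlap for 3 of the 7 genes (bw, ry and v), as for 11.1% of all genes. In Input the difference from control was 0.01 (95% interval -0.33 to 0.34) for Nab2-FLAG and 0.10 (-0.23 to 0.43) for Atx2-3xFLAG, neither called, and Atx2-3xFLAG RIP differed from control by -0.11 (-0.38 to 0.16). Both RIP calls of bw held in all 14 alternatives. The mean level of bw was highest in control RIP (89.1 ± 15.5 CPM) and lowest in Nab2-FLAG RIP (53.8 ± 5.49 CPM), and the 4 means between them, from 75.6 to 80.5 CPM, differed by less than their SD.

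The gene st (FBgn0003515; 3L:16497651-16500460) encodes the partner of w in the ommochrome transporter and had few reads, from 0 to 68 per library. Its Input level was 27.4, 26.3, 25.4 and 25.4 CPM in control, 38.2, 34.5, 33.0 and 28.3 CPM in the Nab2-FLAG libraries and 23.8, 42.4, 28.8 and 17.3 CPM in those of Atx2-3xFLAG. All Nab2-FLAG Input values were above all control values, while Atx2-3xFLAG spanned both. In RIP the level was 18.3, 13.3, 0 and 29.9 CPM in control, 27.4, 17.7, 34.5 and 25.3 CPM in the Nab2-FLAG libraries and 22.9, 23.7, 18.9 and 14.0 CPM in those of Atx2-3xFLAG. The control value of 0 came from the shallowest library, where 3 counts would be 14.45 CPM. No comparison of genotypes called st: the log2 difference from control was 0.38 (95% interval -0.13 to 0.88) and 0.05 (-0.47 to 0.57) for Nab2-FLAG and Atx2-3xFLAG Input, and 0.34 (-0.24 to 0.93) and -0.07 (-0.66 to 0.52) in RIP.

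The gene v (FBgn0003965; X:10923972-10925631) stands at the entry of the ommochrome route. In Input it was at 33.2, 46.4, 56.7 and 25.4 CPM in control, 61.8, 53.4, 61.6 and 28.3 CPM in the Nab2-FLAG libraries and 42.7, 44.2, 41.2 and 29.3 CPM in those of Atx2-3xFLAG. Replicate 4 was lowest in each genotype and the groups overlapped. In RIP it was at 20.5, 38.2, 72.3 and 24.5 CPM in control, 40.4, 51.1, 34.5 and 33.7 CPM in the Nab2-FLAG libraries and 32.5, 25.1, 28.5 and 21.9 CPM in those of Atx2-3xFLAG. Control RIP spanned both tagged groups, while all Nab2-FLAG RIP values were above all Atx2-3xFLAG RIP values. That difference was 0.63 on the log2 scale (SE 0.21) and did not pass the test (adjusted p = 0.0863 in edgeR), though it passed with no expression filter (0.0382) and without the 2 shallowest lysates (0.04996). Against control the differences were 0.41 (95% interval -0.04 to 0.86) and -0.02 (-0.49 to 0.45) in Input and 0.35 (-0.11 to 0.81) and -0.28 (-0.76 to 0.19) in RIP, none called.

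The gene cn (FBgn0000337; 2R:7782797-7785067), which acts later on that route, was near the limit of detection. It had 0 to 2 counts in each library, with sums over 4 libraries of 1, 1 and 2 for Input of control, Nab2-FLAG and Atx2-3xFLAG and 0, 2 and 3 in RIP. A sum of 0 in control RIP allows a level of up to 0.771 CPM, taking 3 counts over the group as the limit. No difference of cn between groups was detectable at this depth.

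The gene pr (FBgn0003141; 2L:20073719-20075458), an early step of pteridine synthesis, rose in every comparison with control. Its Input level was 60.6, 89.7, 74.3 and 106.7 CPM in control, 131.5, 128.7, 172 and 173.6 CPM in the Nab2-FLAG libraries and 143.8, 173.2, 161.5 and 193.1 CPM in those of Atx2-3xFLAG. The highest control value was below the lowest value of either tagged genotype. In RIP the level was 59.2, 46.0, 57.8 and 85.6 CPM in control, 98.5, 102.2, 120.6 and 134.9 CPM in the Nab2-FLAG libraries and 106, 126.4, 142.6 and 129.7 CPM in those of Atx2-3xFLAG. The same separation held there.

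In Input pr was 1.81-fold higher in Nab2-FLAG (log2 difference 0.85, SE 0.16, adjusted p = 7.74e-05 in edgeR) and 2.02-fold higher in Atx2-3xFLAG (1.01, SE 0.15, adjusted p = 1.69e-06). In RIP the differences were 0.80 (SE 0.16, adjusted p = 0.000278) and 0.97 (SE 0.15, adjusted p = 6.98e-06). Between the tagged genotypes pr differed by -0.16 in Input (95% interval -0.44 to 0.12) and -0.16 in RIP (-0.44 to 0.11), not called. All 4 calls against control held in each of 14 alternatives.

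The gene se (FBgn0086348; 3L:8520552-8521489) makes the precursor of the red drosopterins. Its Input level was 115.4, 94.3, 138.8 and 103.3 CPM in control, 176.4, 210.3, 219.3 and 207.9 CPM in the Nab2-FLAG libraries and 238, 285.5, 202.6 and 187.7 CPM in those of Atx2-3xFLAG. Every tagged Input library was above every control Input library. In RIP the level was 77.5, 69.5, 96.4 and 110 CPM in control, 90.8, 104.1, 96.5 and 136.1 CPM in the Nab2-FLAG libraries and 118, 166.9, 159.9 and 143.7 CPM in those of Atx2-3xFLAG. There Atx2-3xFLAG stayed above control, while Nab2-FLAG overlapped both other genotypes.

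In Input se was 1.81-fold higher in Nab2-FLAG (log2 difference 0.85, SE 0.14, adjusted p = 1.09e-05 in edgeR) and 2.02-fold higher in Atx2-3xFLAG (1.01, SE 0.14, adjusted p = 1.61e-07). In RIP it was 1.66-fold higher in Atx2-3xFLAG (0.73, SE 0.15, adjusted p = 0.000282), and the difference of 0.29 in Nab2-FLAG did not pass (SE 0.15, adjusted p = 0.198; 0.0206 without control RIP 4). Between the tagged genotypes se differed by -0.44 in RIP (SE 0.14, adjusted p = 0.0612 in edgeR). That value passed without Nab2-FLAG replicate 4 (-0.61, adjusted p = 0.0111), without Atx2-3xFLAG replicate 1 (-0.51, adjusted p = 0.0257), with no expression filter (adjusted p = 0.0118) and with scaling by library size alone (0.0205). In Input it was -0.16 (95% interval -0.41 to 0.10).

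The gene ry (FBgn0003308; 3R:13032528-13038020), whose enzyme also works in purine breakdown, rose in Atx2-3xFLAG in both pools. Its Input level was 43.3, 41.8, 29.3 and 27.1 CPM in control, 47.2, 42.9, 50.2 and 44.4 CPM in the Nab2-FLAG libraries and 63.5, 46.1, 74.1 and 42.6 CPM in those of Atx2-3xFLAG. Most tagged libraries were above the controls, with an overlap at the highest control. In RIP the level was 48.5, 32.8, 53.0 and 31.9 CPM in control, 39.6, 38.3, 37.9 and 42.8 CPM in the Nab2-FLAG libraries and 59, 60.1, 56.5 and 45.1 CPM in those of Atx2-3xFLAG. All Nab2-FLAG RIP values were below all Atx2-3xFLAG RIP values, and control RIP overlapped both.

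Against control the log2 difference of ry in Atx2-3xFLAG was 0.69 in Input (SE 0.21, adjusted p = 0.0151 in edgeR) and 0.48 in RIP (SE 0.17, adjusted p = 0.0325). The Input call was lost without control replicate 3 or 4 (adjusted p = 0.0545 and 0.0531) and without Atx2-3xFLAG replicate 1 or 3 (0.0522 and 0.116). The RIP call was lost without control replicate 2 or 4 (0.144 and 0.136) and without Atx2-3xFLAG replicate 2 or 3 (0.0809 and 0.0743). Neither passed with DESeq2 (adjusted p = 0.0575 and 0.0862). In Nab2-FLAG the differences were 0.36 in Input (95% interval -0.08 to 0.80) and 0.07 in RIP (-0.30 to 0.43), not called. Between the tagged genotypes in RIP, ry differed by -0.42 (SE 0.16, adjusted p = 0.146), also not called. In Input 0 of 7 pigment genes were called between the tagged genotypes with edgeR or DESeq2, and 4.26% of all genes were called in edgeR. At an unadjusted p under 0.05 in edgeR there was 1 (v), beside 971 of all 6147 genes.

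**Figure D2:**
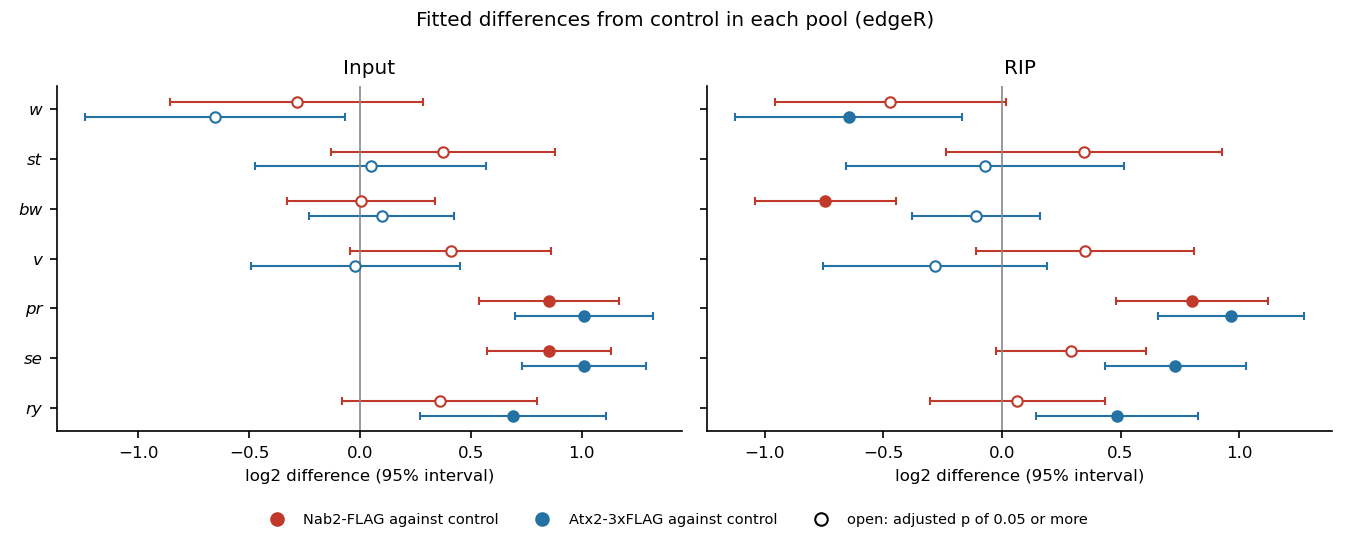
Fitted log2 difference from control with its 95% interval for the 7 tested pigment genes, Input on the left and RIP on the right; filled points passed an adjusted p of 0.05 and open points did not. The pteridine enzyme genes pr and se lie near 1 in Input in both tagged genotypes, and bw leaves 0 in Nab2-FLAG RIP, at -0.74.

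Other genes of the pigment pathways were read beside the 8. Pu, GTP cyclohydrolase, which feeds pteridine synthesis one step before pr, rose most of the listed pathway genes in Input: its level was 214 ± 42.6 CPM in control, 895 ± 154 CPM with Nab2-FLAG and 641 ± 51.7 CPM with Atx2-3xFLAG (SD, n = 4). The groups did not overlap, and the differences were 2.07 (adjusted p = 7.47e-17 in edgeR) and 1.59 (adjusted p = 3.60e-13). In RIP they were 1.71 (adjusted p = 5.42e-05) and 1.46 (adjusted p = 0.000144). Pu was also the single listed pteridine gene called between the tagged genotypes in Input, with a log2 difference of 0.48 (adjusted p = 0.00829).

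Of 11 listed pteridine genes outside the 8, 9 were tested. In Input 2 rose and 0 fell in each tagged genotype, where 12.2% (Nab2-FLAG) and 16.5% (Atx2-3xFLAG) of all genes were called. The other riser was ras, IMP dehydrogenase of guanine nucleotide synthesis, in Nab2-FLAG (0.43, adjusted p = 0.0468) and DhpD, a dihydropterin deaminase, in Atx2-3xFLAG (0.78, adjusted p = 0.0289). In RIP 3 rose and 0 fell in each, where 20.0% (Nab2-FLAG) and 24.1% (Atx2-3xFLAG) of all genes were called. Those in Nab2-FLAG were Pu, Hn (phenylalanine hydroxylase, 0.46, adjusted p = 0.0021 in edgeR) and ras (0.45, adjusted p = 0.0251). Those in Atx2-3xFLAG were Pu, Hn (0.40, adjusted p = 0.00543 in edgeR) and DhpD (1.02, adjusted p = 0.000741). With DESeq2 neither ras nor DhpD passed in Input (adjusted p = 0.129 for ras in Nab2-FLAG, 0.0876 for DhpD in Atx2-3xFLAG), which left 1 riser, Pu, in each, and ras did not pass in Nab2-FLAG RIP (0.0670). The median Input difference of the 9 was 0.35 and 0.24, beside the near-zero medians of all genes given above.

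On the ommochrome side, 2 of 5 listed genes were tested. KFase, the kynurenine formamidase between v and cn, rose in Input in Nab2-FLAG (1.15, adjusted p = 0.00168 in edgeR) and Atx2-3xFLAG (0.99, adjusted p = 0.00586), from 16.6 ± 3.23 CPM in control to 36.5 ± 3.16 and 32.8 ± 6.86 CPM. The eye colour gene kar rose in Nab2-FLAG Input (0.50, adjusted p = 0.0262 in edgeR) and RIP (0.39, adjusted p = 0.0436). With DESeq2 kar passed in neither (adjusted p = 0.0824 and 0.108), while both KFase calls in Input held. In RIP KFase was called in neither tagged genotype with edgeR or DESeq2. Its RIP differences with DESeq2 were 0.80 (adjusted p = 0.0944) in Nab2-FLAG and 0.61 (adjusted p = 0.208) in Atx2-3xFLAG. Of 12 listed genes of granule traffic, the sorting machinery that builds pigment granules, 11 were tested. None of the 11 was called in any comparison of genotypes within a pool with edgeR or DESeq2. Of all genes 4.26% to 24.1% were called in those comparisons in edgeR. At an unadjusted p under 0.05 in edgeR there were 2 of the 11 in each tagged genotype against control in Input. All genes at that threshold numbered 1415 for Nab2-FLAG and 1703 for Atx2-3xFLAG, of 6147. In RIP there were 0 and 2 of the 11, beside 1928 and 2120 of all genes.

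**Figure D3:**
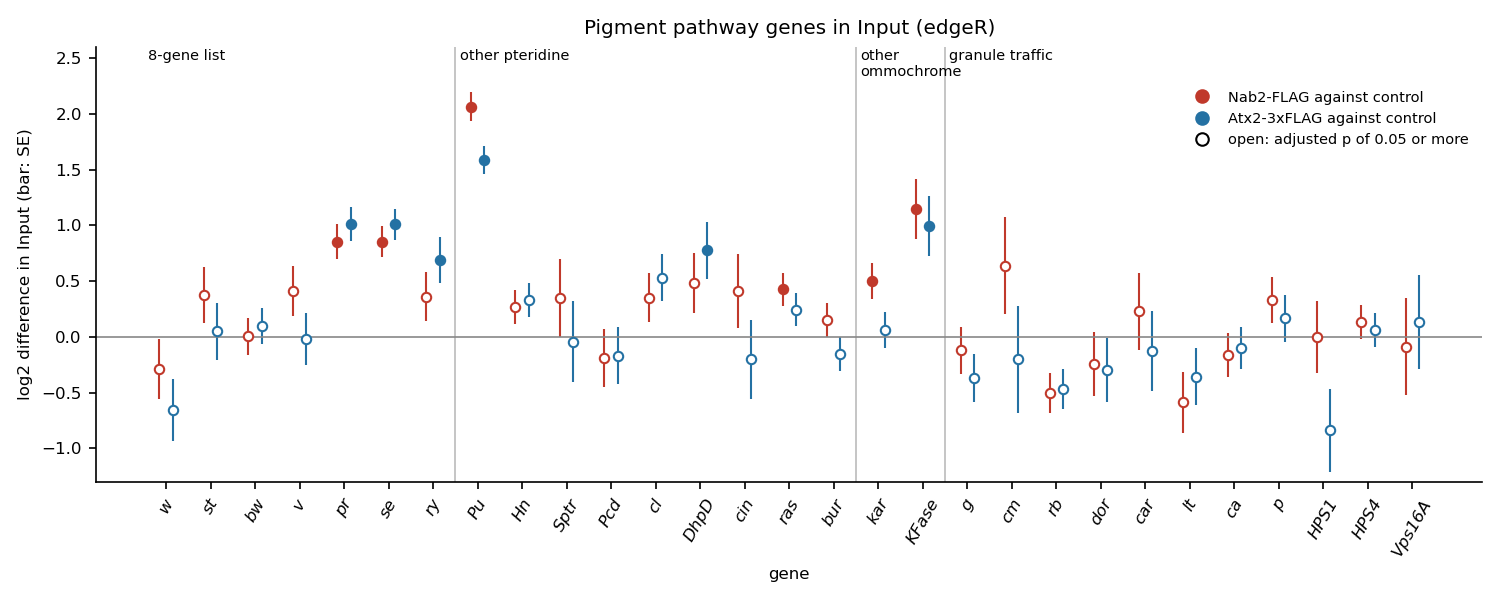
Fitted log2 difference from control in Input (bars, SE) for the 7 tested genes of the list of 8 and for other listed pteridine, ommochrome and granule traffic genes; filled points passed an adjusted p of 0.05. Pu stands highest at 2.07 and 1.59, and all granule traffic points are open.

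Markers of eye and other head cells also differed between the genotypes, in both directions. In Input 4 of 9 photoreceptor markers fell in each tagged genotype (ninaE, trpl, Arr1 and Arr2, of the light response), while 1 rose in Nab2-FLAG and 2 in Atx2-3xFLAG. The summed level of the 9 ran from 81710 to 113500 CPM in control. With Nab2-FLAG it ran from 56330 to 69010 CPM, and with Atx2-3xFLAG from 56110 to 67780 CPM. Most of that sum came from ninaE and Arr2, with control Input means of 62200 and 16410 CPM, so it does not stand for all 9. Mean Input levels of ninaC, norpA and chp were above control with either tag. Those of trp and inaD were below control and not called. Pdh, the one retinal pigment cell marker in the tables, was at 991 ± 305 CPM in control, 1654 ± 118 CPM in Nab2-FLAG (log2 difference 0.74, called) and 1245 ± 138 CPM in Atx2-3xFLAG (0.33, not called). The lens gene Crys rose by 2.80 and 1.52, and 4 of 4 tested muscle markers rose in both. Of 6 glial markers 3 rose in Nab2-FLAG and 0 in Atx2-3xFLAG. Of 7 neuronal markers 1 fell in Nab2-FLAG and 3 rose in Atx2-3xFLAG. Among 5 tested fat body markers 1 rose in Nab2-FLAG and 3 fell in Atx2-3xFLAG. In these Input comparisons 12.2% and 16.5% of all genes were called in either direction, in the same order. With DESeq2, 2 glial markers rose in Nab2-FLAG, and 1 neuronal marker rose and 2 fat body markers fell in Atx2-3xFLAG. In RIP, where bw and w fell, 5 photoreceptor markers fell and 1 rose in Nab2-FLAG, and 4 fell and 2 rose in Atx2-3xFLAG. Of all genes 20.0% and 24.1% were called in these RIP comparisons, and Pdh differed by 0.72 and 0.30. None of the listed markers was at 0 in a whole group. The part of these shifts in the rise of pr, se, ry and Pu, or in the values of bw and w, was not tested.

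RIP set against Input of the same lysates showed which pigment RNAs were carried into the immunoprecipitate more or less than other RNAs. None of the 7 tested pigment genes was called higher in RIP in any genotype with scaling by TMM. In control 0 were called with edgeR or DESeq2, and 7.43% of all genes were called in edgeR. At an unadjusted p under 0.05 in edgeR there were 2 in control, beside 1236 of all 6147 genes. In Nab2-FLAG 3 were lower (se, pr and bw, with 7.82% of all genes called). In Atx2-3xFLAG 2 were lower (se and pr, with 7.76% of all genes called). With scaling by library size alone, which raised the median of all genes by 0.37 to 0.39, 2 were higher in control and 1 was lower in Nab2-FLAG. In Atx2-3xFLAG w (0.71, adjusted p = 0.000795 in edgeR) and bw (adjusted p = 0.0378) were then higher and pr and se no longer passed (adjusted p = 0.828 and 0.0968). Of all genes in control, 1931 were then higher and 45 lower, against 185 and 272.

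For se the log2 RIP-to-Input ratio was -0.56, -0.43, -0.52 and 0.09 in the 4 control lysates, -0.94, -1.001, -1.17 and -0.60 in those of Nab2-FLAG and -1.0, -0.77, -0.34 and -0.38 in Atx2-3xFLAG. All Nab2-FLAG ratios were below all control ratios. The fitted difference was -0.33 (SE 0.14, adjusted p = 0.157 in edgeR) in the control, -0.91 (SE 0.12, adjusted p = 9.32e-09) with Nab2-FLAG and -0.61 (SE 0.11, adjusted p = 1.78e-05) with Atx2-3xFLAG. The control value passed without control replicate 4 (-0.51, adjusted p = 0.0473), and with scaling by library size alone it turned to 0.0704.

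For bw the ratio was 0.26, -0.24, 0.23 and 0.59 in control lysates, -0.33, -0.83, -0.39 and -0.31 in those of Nab2-FLAG and -0.49, 0.38, -0.10 and 0.29 in Atx2-3xFLAG. All Nab2-FLAG ratios were below all control ratios, and Atx2-3xFLAG overlapped both. The fitted difference was -0.49 in Nab2-FLAG (SE 0.16, adjusted p = 0.0396 in edgeR), 0.21 in control and 0.01 in Atx2-3xFLAG. The Nab2-FLAG call was lost when any 1 of its 4 lysates was left out: its adjusted p was then 0.0873, 0.399, 0.0751 and 0.05003, in order of the replicate left out.

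For pr the fitted ratio was below 0 in each genotype: -0.43 (SE 0.15) for control, -0.40 (SE 0.12) for Nab2-FLAG and -0.41 (SE 0.11) for Atx2-3xFLAG, with adjusted p of 0.0655, 0.0235 and 0.00847 in edgeR. The control value passed without control replicate 1 (adjusted p = 0.0441). The Nab2-FLAG call was lost without any 1 of its lysates (adjusted p from 0.0573 to 0.125), and the Atx2-3xFLAG call without replicate 2 (0.0617) or 4 (0.0915). With scaling by library size alone the pr ratio was -0.02 and -0.04 in the tagged genotypes.

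The transporter subunit w had fitted ratios of 0.24 for control, -0.0047 for Nab2-FLAG and 0.33 for Atx2-3xFLAG, the last with an unadjusted p of 0.0499 and an adjusted p of 0.247 in edgeR. The ratio of v was -0.19, -0.32 and -0.53, that of st -0.54, -0.44 and -0.48, and that of ry 0.12, -0.20 and -0.06, in the same order, none called. The st value in control includes the library with 0 counts.

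**Figure D4:**
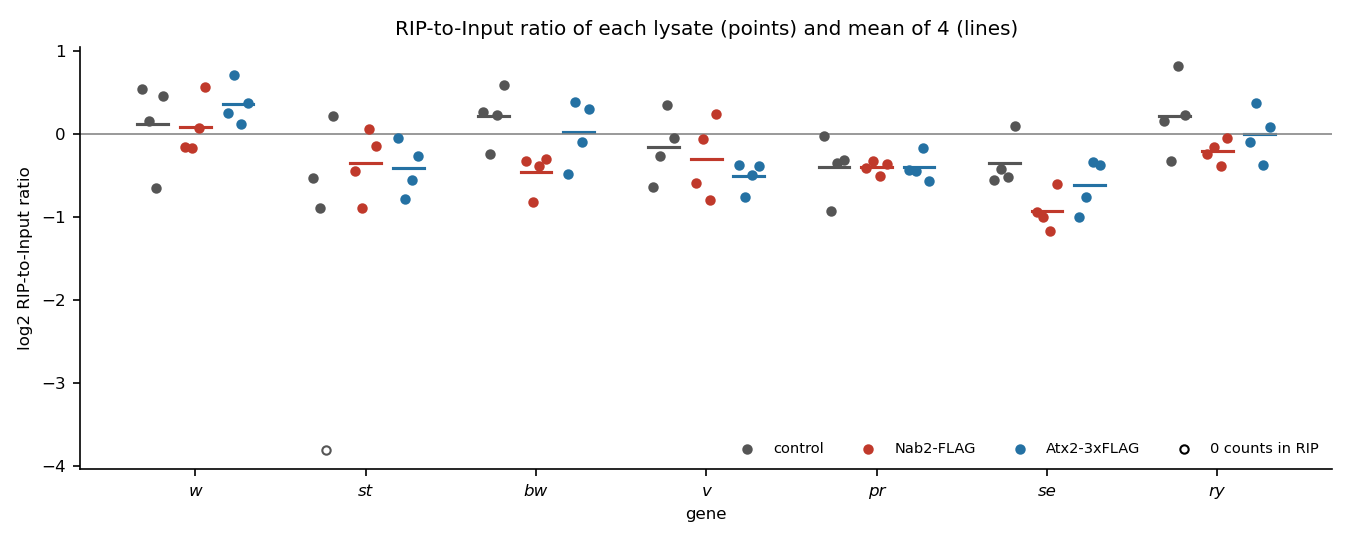
Log2 RIP-to-Input ratio (prior count 2) of each lysate for the 7 tested pigment genes, with the mean of 4 as a line; the open point is the control lysate with 0 st counts in RIP, whose ratio is set by the prior count, and no mean is drawn there. Nab2-FLAG points of se and bw lie below all control points, while the 3 genotypes overlap for w.

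Which RNAs associate with Nab2 or Atx2 was the question of the series; it was read from how far the RIP-to-Input difference of a tagged genotype exceeded that of the control. None of 7 pigment genes was called in either association with edgeR or DESeq2. In edgeR 0.0976% of all genes were called for Nab2 and 0.0488% for Atx2. At an unadjusted p under 0.05 in edgeR there were 2 pigment genes for Nab2, beside 440 of all 6147 genes. For Atx2 there were 0, beside 340 of all genes. Those for Nab2 were bw (-0.70, SE 0.23, unadjusted p = 0.00254, adjusted p = 0.300) and se (-0.58, SE 0.18, unadjusted p = 0.00194, adjusted p = 0.298), both towards less RNA in RIP. Their ratios did not overlap with control in 4 against 4 lysates, as was so for 4.20% of all genes. Between the tagged proteins 0 of 7 were called with edgeR or DESeq2, where 0% of all genes were in edgeR. There 1 pigment gene, bw, had an unadjusted p under 0.05 (-0.50, unadjusted p = 0.0202 in edgeR), beside 224 of all 6147 genes.

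The association of w was -0.25 for Nab2 (95% interval -0.71 to 0.22) and 0.09 for Atx2 (-0.38 to 0.56). That of pr was 0.04 (-0.34 to 0.42) and 0.03 (-0.34 to 0.40), so that pr was higher in both pools of the tagged genotypes with no detectable difference of that rise between the pools. For ry it was -0.32 (-0.89 to 0.25) and -0.17 (-0.71 to 0.36), for v -0.13 (-0.71 to 0.46) and -0.34 (-0.93 to 0.26), and for st 0.09 (-0.66 to 0.84) and 0.05 (-0.71 to 0.81).

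The authors' deposited table of percent input lists 7 of the 8 genes, without cn. In the authors' deposited table the ratio of Nab2-FLAG to control was 0.613 for bw with a Dunnett p of 0.0421, a value under 0.05 as in 4.27% of its genes. The analysis of variance p of bw in the authors' deposited table was 0.0613, the lowest of the 7 genes and not under 0.05. For se the authors' deposited table gives 0.666 with a Dunnett p of 0.0553, and for ry 0.707 with 0.181. Its ratios of Atx2-3xFLAG to control run from 0.749 for v to 1.26 for st, with the lowest Dunnett p in the authors' deposited table for these genes at 0.331. For w the authors' deposited table has 0.946 and 1.14, and for pr 0.984 and 0.976.

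Likeness between genes was measured as the root mean square difference of log2 CPM profiles over 24 libraries, each profile centred within its pool, among 6140 tested genes outside the 8. The closest genes to pr were GlyP (0.15), rdgA (0.17) and uif (0.18), and those closest to se were Cpn (0.14), dpy (0.21) and Rpn1 (0.21). For ry they were Reg-5 (0.19), Fum1 (0.22) and CycY (0.22), and for bw Herc4 (0.20), Faf2 (0.21) and CG1662 (0.22). The profile of w had no gene closer than Spn43Ab (0.26), followed by whd and Hsp68 (both 0.30). Among the pigment genes themselves pr and se were the closest pair, at 0.31.

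All of the 8 genes but v and ry overlap another gene in the RefSeq annotation of the same Release 6 assembly, and no source used here states whether reads were counted by strand, so that reads in shared stretches are uncertain. The gene pr overlaps bwa, which rose in Atx2-3xFLAG Input by 1.06 (adjusted p = 0.00996 in edgeR) and RIP by 0.99 (adjusted p = 0.00283). The gene bw overlaps mi, which fell by 0.86 on the log2 scale in Nab2-FLAG RIP (adjusted p = 0.0147). Partners of w (kirre), st (CG43373) and se (GstO2) were called in no comparison with control within a pool; GstO2 differed by -0.06 and -0.58 in Input, where se rose. How far the partners' reads enter the counts of pr and bw was not tested.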

How the data were processed

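For each library the authors deposited a table of raw counts by gene, made with STAR 2.6.0b-1 and featureCounts 1.6.3 on build BDGP6, per the submitters' processing notes; the annotation and strand setting are not given in the sources used here. Every count belongs to a named gene. The authors' deposited table of percent input gives ratios to control and p-values of an analysis of variance and of Dunnett's test; its 24 columns of per-sample values and the authors' normalized counts were not used. Depth per library was 220894 to 2109561 counts, and limits from counts cover counting error only, since no molecular identifiers are described.

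Genes with low counts were removed with filterByExpr (6 groups; minimum count 10, total 15). The tests were edgeR's quasi-likelihood F tests (edgeR 4.0.16, R 4.3.3; robust, TMM, two-sided, Benjamini-Hochberg over 6147 genes, threshold 0.05). Genotypes were compared within each pool of 12 libraries. RIP-to-Input differences and associations were fitted on 24 libraries with 1 coefficient per lysate, because the labels tie each RIP to the Input of the same lysate; the median correlation of their deviations was 0.182, and 10 of 12 were over 0.1. Log2 CPM used a prior count of 2. No replicate pair of a group agreed within counting noise. The procedure was tested on simulated data. The members, the pathway and marker lists and the tests were chosen with earlier results of these data known; named genes are all 8 members, the called genes of the pathway lists and the 3 nearest profiles. Alternatives were RLE and library-size scaling, no filter, DESeq2 1.42.0, a replicate block, no coefficient per lysate and each lysate left out. Removal of the 2 shallowest lysates was added after seeing the data.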

Additional observations from a re-analysis of the deposited data

Results flagged for a closer look

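Of 63 groups of 4 values of the pigment genes examined for a value far from the other 3, 2 held one, where chance gives about 3.15. The level of bw in Nab2-FLAG RIP replicate 3 was 62.02 CPM, above the 50.44 to 51.78 CPM of the other 3 libraries; it rests on 18 counts in the second shallowest library and still lay below every control RIP library. The log2 RIP-to-Input ratio of bw in Nab2-FLAG replicate 2 was -0.8264, below the -0.3871 to -0.3088 of the other 3 lysates. Both are single values of bw in Nab2-FLAG, and their origin was not tested.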

How the results depend on the processing

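The rise of pr against control in both pools, that of se in Input and in Atx2-3xFLAG RIP, and both RIP calls of bw held in all 14 alternatives run for them. Over 32 named differences and 415 refits, 353 kept direction and call, 42 lost the call, 19 gained it and 1 reversed, se in control RIP against Input, at 0.0704 with library size alone. Over all 84 differences of the 7 genes, signs changed in 73 of 1113 refits, 0 of them in called differences. The number of pigment genes called moved in these cases, and the cause was not tested. With library size alone it was 2 for Nab2-FLAG against Atx2-3xFLAG in RIP, 2 for RIP against Input in control and 1 in Nab2-FLAG. Without a filter it was 3 for Nab2-FLAG against Atx2-3xFLAG in RIP. With DESeq2 it was 2 for Atx2-3xFLAG against control in RIP and 1 for RIP against Input in Nab2-FLAG. Without the 2 shallowest lysates it was 2 for Nab2-FLAG against Atx2-3xFLAG in RIP and 1 for RIP against Input in Nab2-FLAG.

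Leaving out 1 lysate at a time gave 0 to 1 calls for RIP against Input in control, 1 in Nab2-FLAG, 1 to 2 in Atx2-3xFLAG, 2 to 4 for Atx2-3xFLAG against control in RIP and 1 to 2 for Nab2-FLAG against Atx2-3xFLAG in RIP. Library size alone shifted the median of all genes by 0.16 and 0.24 in Nab2-FLAG and Atx2-3xFLAG Input, by 0.13 and 0.18 in RIP, and by 0.37 to 0.39 between RIP and Input.

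Replicate numbers were not used to pair the genotypes in the reported fits. Deviations of same-numbered libraries correlated with a median r of 0.0801 (-0.0517 to 0.455), over 0.1 in 11 of 24 pairs. In each pool 13 of 24 comparisons of a library with the 4 libraries of another genotype gave the best correlation at its own number. The source of these correlations was not tested. With a replicate block, 3 pigment genes were called for Nab2-FLAG against Atx2-3xFLAG in RIP, with v (0.70, adjusted p = 0.0384 in edgeR) and se (-0.41, adjusted p = 0.0414) gained, and w was called in Atx2-3xFLAG Input (-0.70, adjusted p = 0.00212 in edgeR) and Nab2-FLAG RIP (-0.54, adjusted p = 0.00892). With no coefficient per lysate, 1 was called for RIP against Input in Atx2-3xFLAG. The depth limits cn, st and v most.

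Over all genes, calls for RIP against Input in control, Nab2-FLAG and Atx2-3xFLAG numbered 457, 481 and 477. They numbered 289 and 265 in the tagged genotypes with no coefficient per lysate. In the same 3 genotypes there were 286, 305 and 288 with DESeq2, but 1976, 1809 and 2091 with library size alone. Of those with library size alone, 22 and 25 were lower in Nab2-FLAG and Atx2-3xFLAG, against 271 and 231. Calls between the tagged genotypes in RIP fell from 267 to 163 with DESeq2, and in Input rose from 262 to 413 with a replicate block; with library size alone that Input comparison had 87 higher and 91 lower, against 161 and 101, and the RIP one 93 and 135, against 150 and 117. Associations with Nab2 and Atx2 had 6 and 3 calls, 48 and 31 with a replicate block and 0 and 0 with no coefficient per lysate.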
